A study of Homo sapiens with 6 samples.

Results

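The two-pore potassium channel genes examined here are the 9 genes KCNK1, KCNK2, KCNK3, KCNK5, KCNK6, KCNK10, KCNK12, KCNK13 and KCNK15. They were chosen by symbol from the 15 two-pore channel symbols among the 24462 gene symbols of the count files, as the family around KCNK12, whose counts in this same comparison were already known to be much higher in the APC depleted cells. The counts of the members therefore describe the 2 cell lines and are given without a p-value. RNA was sequenced in bulk from 3 samples of 1CT (labelled HCEC 1CT_WT), an immortalized human colon epithelial cell line described in the labels as progenitor cells, and from 3 samples of 1CT-A (labelled HCEC 1CT_APC KD), the version of that line in which wild type APC is depleted. Both lines were untreated and were kept in one culture medium with EGF, hydrocortisone, insulin, transferrin, selenite and a low level of serum. The sources used here do not give the construct that depletes APC in 1CT-A, do not say whether 1CT-A is 1 clone, and do not say whether the libraries come from separate cultures, so p-values measure only the spread between these libraries, which may be technical.

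Two-pore channels carry the background or leak current of potassium that holds the membrane of a resting cell negative. Each subunit brings a pair of pore-forming loops, and a pair of subunits builds one channel. The family is sorted by sequence and by what gates the channel, into the weakly rectifying TWIK channels, the stretch, heat and lipid sensitive TREK channels, the acid sensitive TASK channels, the alkaline activated TALK channels and the halothane inhibited THIK channels. In epithelia of the gut and kidney such channels supply part of the potassium conductance that supports ion and fluid transport.

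The loops are shown first, since they are what makes the members one family. The ion filter of each loop is written in the coding sequence as a threonine codon followed by glycine codons at the third and the fifth place, which was searched in frame as ACNNNNGGNNNNGGN on the coding strand of the GENCODE release 44 transcripts. Exactly 2 matches were found in 7 of the 9 members, 3 in KCNK5 and 1 in KCNK15, while 1.84% of all 20066 canonical coding sequences held 2 or more. The matches of the 5 members with 3 or more counts in some library, and of KCNK13, the nearest relative of KCNK12, are given 5′ to 3′ with the GG-starting codons in capitals.
KCNK12 first pore: accataGGTttcGGC
KCNK12 second pore: accatcGGCttcGGG
KCNK13 first pore: accataGGGtttGGG
KCNK13 second pore: accattGGCtttGGG
KCNK1 first pore: accacaGGTtatGGC
KCNK1 second pore: accattGGCctgGGG
KCNK6 first pore: accgtgGGCtatGGG
KCNK6 second pore: accatcGGCctgGGC
KCNK2 first pore: accataGGAtttGGA
KCNK2 second pore: actattGGAtttGGT
KCNK3 first pore: accatcGGCtacGGG
KCNK3 second pore: accatcGGCttcGGC
The fourth codon differed between the members. It was ttt or ttc in both loops of KCNK12, KCNK13 and KCNK2, and tat or tac followed by ttc or ctg in KCNK3, KCNK6 and KCNK1. In KCNK12 the second match lies in exon 2 of 2 at chr2:47521420-47521434 on the minus strand of GRCh38. In all 7 members with 2 matches the first match is cut by an intron after its base 7, that is inside the first capital codon, and the second match is cut in 0 of them. For KCNK12 the first match, with the intron inside it, runs on the minus strand from position 47569947 to position 47521801 of chromosome 2.

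Before the members, the samples themselves were checked. APC had 49.3, 43.8 and 46.6 CPM (counts scaled to the same total in every library) in 1CT and 31.5, 30.0 and 34.4 CPM in 1CT-A. It was lower in every 1CT-A library, with a log2 fold change at -0.58 (standard error, SE, 0.09, adjusted p = 1.8e-04 by edgeR). Library totals ran from 7788679 to 8452258 counts in 1CT and from 11158108 to 12602988 counts in 1CT-A. A value below 3 counts was called not visible, which corresponds to 0.355 to 0.385 CPM in a 1CT library and 0.238 to 0.269 CPM in a 1CT-A library. Of 6 epithelial markers, EPCAM was at 0 in every library and only KRT18 was visible in all of them, and the list summed to 13.5 to 17.5 CPM for 1CT, against 3.32 to 7.28 CPM for 1CT-A. KRT19 had 20, 27 and 34 counts in 1CT and 0 in each 1CT-A library. Of 5 colonocyte markers none reached 3 counts, and CDX1, VIL1 and CA1 were at 0 throughout. All 6 fibroblast markers were visible in every library, and summed to 4619 to 5567 CPM for 1CT, against 4032 to 4317 CPM for 1CT-A. They did not move together: DCN was higher in every 1CT-A library, VIM and COL1A2 overlapped, and COL1A1, PDGFRB and THY1 were lower. Among 4 leukocyte and microglia markers CD68 alone was visible, among 3 endothelial markers PECAM1 alone (3 counts in 1 library), and among 4 neuron and glia markers SNAP25 alone, with 15, 16 and 7 counts in 1CT and 0 in 1CT-A. The part of these markers in the results on the members was not tested, and in bulk libraries fewer cells of a type and less RNA per cell cannot be told apart.

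Of the 9 members, 3 were visible in every library (KCNK12, KCNK6 and KCNK2), 1 in every 1CT library and in no 1CT-A library (KCNK1), 1 in some libraries of both lines (KCNK3), and 4 in none (KCNK5, KCNK10, KCNK13 and KCNK15). The first 3 passed the filter on low counts and entered the edgeR fit over 12514 genes. They were the members with the higher counts, so what they did does not stand for all 9. In 1CT-A, KCNK12 was higher and KCNK6 and KCNK2 were lower, and for each of them the 3 libraries of one line did not overlap with those of the other. Over all genes tested 59.7% did not overlap between the lines (31.8% higher and 27.9% lower in 1CT-A). By edgeR 51.0% of all genes tested had an adjusted p under 0.05 (25.0% higher and 26.0% lower in 1CT-A). Because the members were chosen with results of this comparison known, nothing is read from the count of 3 members without overlap.

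KCNK12 encodes THIK-2, a THIK channel subunit that is largely held back in the endoplasmic reticulum and passes little current when expressed alone. It lies on the minus strand of chromosome 2 from 47509290 to 47570985 in GRCh38 and has 2 exons. In 1CT it had 19, 10 and 7 counts, against 224, 238 and 220 counts in 1CT-A. Scaled to each library's total this is 2.25, 1.21 and 0.899 CPM in 1CT and 20.1, 20.9 and 17.5 CPM in 1CT-A. The 1CT-A libraries lay close together and far above 1CT, and within 1CT replicate 1 held more counts than the other two libraries combined. The mean level in 1CT was 1.45 ± 0.707 CPM (SD, n = 3), against 19.5 ± 1.79 CPM (SD, n = 3) for 1CT-A. The fitted difference was 3.68 on the log2 scale (SE 0.23), a 12.8-fold higher level in 1CT-A. The counts in 1CT alone would not have passed the filter on low counts, so KCNK12 entered the fit through 1CT-A. Without 1CT replicate 1 the log2 difference was 4.15 (SE 0.24).

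KCNK13 encodes THIK-1, which is best known from microglia and forms mixed channels with THIK-2. It had 2 counts in 1CT replicate 1 and 0 in the other 5 libraries, so it was not visible in either line. The combined depth of 35154413 counts in 1CT-A sets 3 counts at 0.0853 CPM. The level of KCNK12 in 1CT-A thus stood beside a THIK partner gene that was not detectable at this depth.

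KCNK6 encodes TWIK-2, a channel of endosomes, lysosomes and the plasma membrane that is known for potassium efflux in macrophages. The gene is annotated on the plus strand at chr19:38319845-38332076. In 1CT it had 269, 251 and 270 counts, against 80, 79 and 79 counts in 1CT-A, whose libraries were deeper. This is 31.8, 30.3 and 34.7 CPM in 1CT and 7.17, 6.93 and 6.27 CPM in 1CT-A. Every 1CT library was above every 1CT-A library, and the gap between the lines exceeded the spread within either line. The mean level in 1CT was 32.3 ± 2.21 CPM (SD, n = 3), against 6.79 ± 0.467 CPM (SD, n = 3) for 1CT-A, and the log2 difference was -2.29 (SE 0.12), which makes KCNK6 4.88-fold lower in 1CT-A.

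KCNK1 encodes TWIK-1, the weak inward rectifier that gave the TWIK channels their name and that cycles through endosomes, and the gene lies on the plus strand at chr1:233614106-233672514. It had 8, 14 and 10 counts in 1CT and 0 counts in each of the 3 1CT-A libraries. This is 0.946, 1.69 and 1.28 CPM in 1CT, with a mean of 1.31 ± 0.372 CPM (SD, n = 3). It was visible in all 1CT libraries and in no 1CT-A library, although the latter were the deeper ones. Against a floor of 3 counts in each 1CT-A library KCNK1 was at least 5.09-fold lower in 1CT-A. Among the members, KCNK6 and KCNK1 of the TWIK class were thus counted less in the APC depleted line.

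KCNK2 encodes TREK-1, a channel opened by stretch, warmth and polyunsaturated fatty acids, and the gene lies on the same chromosome at chr1:215005775-215237090, also on the plus strand. It had 88, 58 and 87 counts in 1CT and 67, 58 and 56 counts in 1CT-A. Scaled to depth this is 10.4, 7.0 and 11.2 CPM in 1CT and 6.0, 5.09 and 4.44 CPM in 1CT-A. The lines did not overlap, but 1CT replicate 2 lay nearer to the highest 1CT-A library than to the other 1CT libraries. The mean in 1CT was 9.53 ± 2.22 CPM (SD, n = 3), against 5.18 ± 0.784 CPM (SD, n = 3) for 1CT-A, with a log2 difference of -0.92 (SE 0.21), or 1.89-fold lower in 1CT-A. KCNK10, the gene of the related TREK-2, was at 0 in all 6 libraries, which allows up to 0.122 CPM in 1CT and 0.0853 CPM in 1CT-A when 3 counts over all libraries of a line are taken as the limit.

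Among the acid sensitive channels, KCNK3 encodes TASK-1, a regulator of the resting potential in smooth muscle and chemosensory cells. It had 10, 2 and 2 counts in 1CT and 7, 4 and 2 counts in 1CT-A. The levels were 1.18, 0.241 and 0.257 CPM in 1CT and 0.627, 0.351 and 0.159 CPM in 1CT-A, so the lines overlapped, and 1CT replicate 1 alone carried most counts of its line. KCNK15, the gene of TASK-5, for which a current of its own is not established, had 2, 0 and 2 counts in 1CT and 1, 0 and 0 counts in 1CT-A, and overlaps the antisense gene KCNK15-AS1. Whether the counting used strand is not given in the sources used here, so reads of a member and of a gene overlapping it on the other strand cannot be told apart. KCNK5 encodes TASK-2, an alkaline activated TALK channel of kidney and gut epithelium, and had 1 count in 1CT replicate 1 and 0 elsewhere. At these depths KCNK3, KCNK15 and KCNK5 did not enter the fit, and no difference was tested for them. The values nearest to the limit of visibility were the 4 counts of KCNK3 in 1CT-A replicate 2 on its upper side and, below it, the 2 counts of KCNK3, KCNK13 and KCNK15 in the libraries named.

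**Figure D1:**
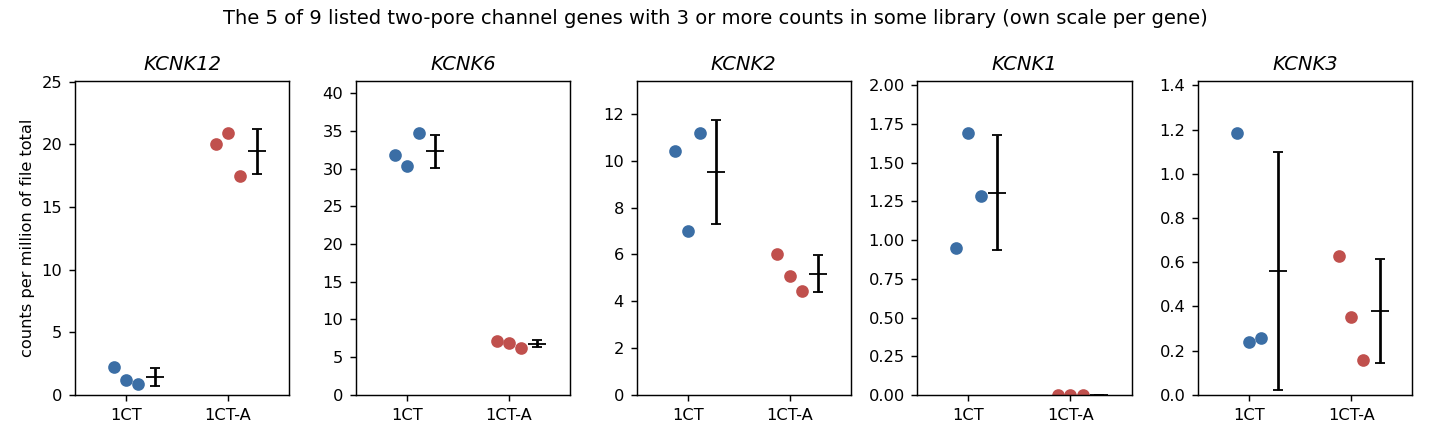
CPM, scaled to the library total, for the 5 of the 9 listed genes that reached 3 counts in some library, with 1 point per library (blue 1CT, red 1CT-A), the mean as a dash and the SD over 3 libraries as a bar, each gene on its own linear axis from 0. KCNK12 lies at 17.5 to 20.9 CPM in 1CT-A against at most 2.25 CPM in 1CT, KCNK6, KCNK2 and KCNK1 lie lower in 1CT-A, and KCNK3 overlaps.

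Put together, the counts of all 15 two-pore channel genes summed to 403, 336 and 378 for 1CT, against 380, 379 and 358 for 1CT-A. As a level, 1CT had 45.6 ± 4.37 CPM (SD, n = 3) and 1CT-A had 31.9 ± 3.06 CPM (SD, n = 3). The genes behind that sum differed between the lines. KCNK6 held 66.7%, 74.7% and 71.4% of the two-pore counts in 1CT and 21.1%, 20.8% and 22.1% in 1CT-A. KCNK12 held 4.71%, 2.98% and 1.85% in 1CT and 58.9%, 62.8% and 61.5% in 1CT-A. The leading gene was therefore KCNK6 in every 1CT library and KCNK12 in every 1CT-A library. The exact (Clopper-Pearson) 95% binomial intervals of the KCNK12 share, which cover counting error only, reached from 0.748% to 7.26% over the 1CT libraries and from 53.8% to 67.7% over the 1CT-A libraries. KCNK2 held 17.3% to 23.0% in 1CT and 15.3% to 17.6% in 1CT-A. These are shares of reads from transcript 3′ ends and not of levels per length, and they rest on the same counts as the values of the single genes.

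**Figure D2:**
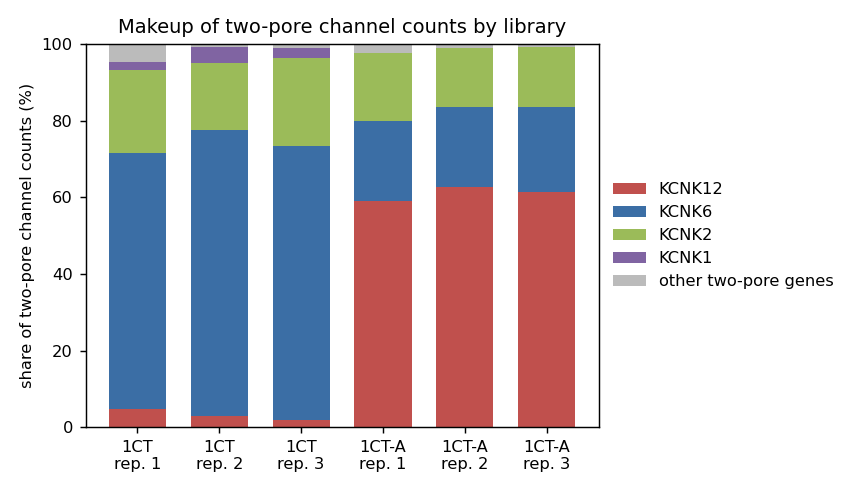
Share of the two-pore channel counts of each library (percent, stacked to 100) that fell on KCNK12, KCNK6, KCNK2, KCNK1 and the other two-pore channel genes, for 3 libraries of 1CT and 3 of 1CT-A. KCNK6 fills 66.7% to 74.7% of the 1CT bars and KCNK12 fills 58.9% to 62.8% of the 1CT-A bars.

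The 6 two-pore channel genes left off the list were close to silent. KCNK9 had 3 counts in 1CT replicate 1 and 0 elsewhere, KCNK7 had 1, 1 and 0 counts in 1CT and 1, 0 and 1 counts in 1CT-A, and KCNK4, KCNK16, KCNK17 and KCNK18 were at 0 in every library. None of the 6 entered the fit.

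The promoters of the members with lower counts in 1CT-A are shown because the groups did not overlap for these genes and all of them were lower in 1CT-A. The RefSeq promoter table (GRCh38.p14, 300 bases around each gene start, most of them upstream) has 9 entries for 7 of the members and none for KCNK12 or KCNK15. Motifs were searched on both strands. The TCF/LEF sites were the letters CTTTGAA and the letters CTTTGAT, as well as the letters CTTTGTA and the letters CTTTGTT, the E-box was CACGTG, and the AP-1 sites were the letters TGACTCA and the letters TGAGTCA. They are found in 13.8%, 7.26% and 4.95% of all 35116 promoters of that length. Matches stand in capitals.
KCNK6 (chr19:38319595-38319894, plus strand): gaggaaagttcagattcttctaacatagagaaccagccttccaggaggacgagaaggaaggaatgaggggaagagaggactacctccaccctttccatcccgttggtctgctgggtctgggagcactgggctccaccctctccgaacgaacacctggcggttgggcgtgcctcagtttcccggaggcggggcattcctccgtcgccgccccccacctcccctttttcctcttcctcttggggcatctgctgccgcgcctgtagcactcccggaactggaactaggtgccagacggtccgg
KCNK1 (chr1:233613856-233614155, plus strand): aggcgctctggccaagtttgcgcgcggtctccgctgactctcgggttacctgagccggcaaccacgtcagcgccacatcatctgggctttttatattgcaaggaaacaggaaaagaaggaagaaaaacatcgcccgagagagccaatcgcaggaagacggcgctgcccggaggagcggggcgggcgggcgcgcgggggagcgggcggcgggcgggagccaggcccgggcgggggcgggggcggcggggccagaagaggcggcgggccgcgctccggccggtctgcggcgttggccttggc
KCNK2 (chr1:215005292-215005591, plus strand): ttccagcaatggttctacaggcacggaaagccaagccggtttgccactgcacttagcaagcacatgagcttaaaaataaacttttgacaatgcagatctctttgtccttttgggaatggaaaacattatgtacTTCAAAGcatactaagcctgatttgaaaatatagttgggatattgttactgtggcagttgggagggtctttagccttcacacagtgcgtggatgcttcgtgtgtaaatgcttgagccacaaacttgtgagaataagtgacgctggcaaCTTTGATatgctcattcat
The KCNK2 sequence held 2 TCF/LEF matches, and that of its second start, at chr1:215082487-215082786, held 0. The KCNK6 and KCNK1 sequences held 0 matches of any of the motifs. The KCNK1 promoter had 70.7% G and C and 38 CG pairs, the KCNK6 promoter 61.0% and 16, and the KCNK2 promoter shown 42.0% and 5, beside medians of 58.7% and 14 over all promoters. A match describes letters only, and no difference between the genes is read from it.

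Genes near KCNK12 on chromosome 2 were then compared, since position was not used to choose the members. Of the 9 neighbours reported here 3 rose, 3 fell and 3 did not pass the test, with a median log2 fold change of -0.02, beside 25.0% higher, 26.0% lower and a median of -0.01 over all genes tested. The rises were MSH6, a DNA mismatch repair gene (0.43, SE 0.09, adjusted p = 0.00138 by edgeR), FBXO11, a ubiquitin ligase subunit (0.36, SE 0.09, adjusted p = 0.00691 by edgeR), and the forkhead factor FOXN2 (0.88, SE 0.21, adjusted p = 0.00317 by edgeR). The falls were TTC7A (-0.64, SE 0.18, adjusted p = 0.00926 by edgeR), MCFD2 (-0.35, SE 0.07, adjusted p = 0.00135 by edgeR) and the short RNA BCYRN1 (-1.0, SE 0.10, adjusted p = 3.6e-06 by edgeR), which has near copies elsewhere in the genome and is uncertain for that reason. CALM2, PPP1R21 and STON1 had log2 fold changes of 0.01, -0.02 and -0.33 and edgeR adjusted p of 0.952, 0.922 and 0.211. None of the 9 had a log2 fold change above 0.88.

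**Figure D3:**
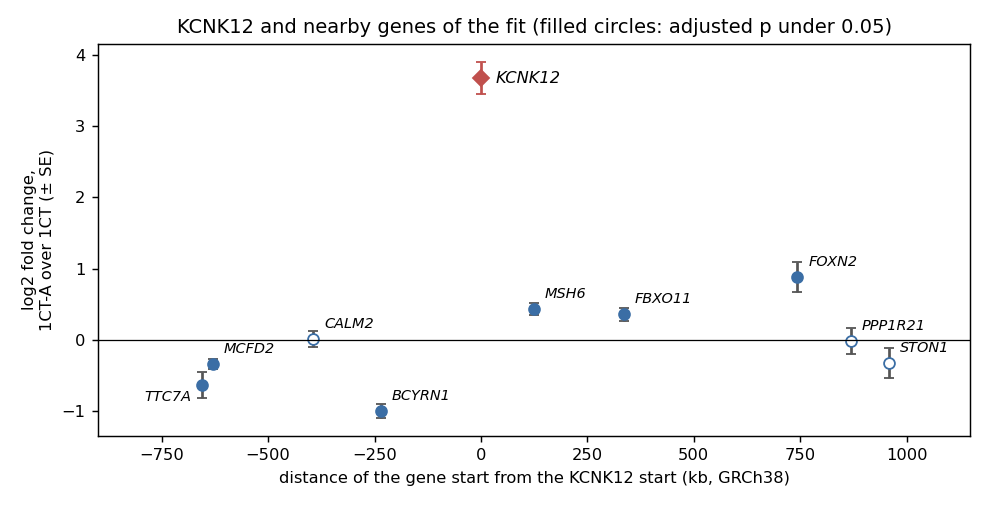
Log2 fold change of 1CT-A over 1CT (vertical axis, with the standard error) for KCNK12 (red diamond, given without a test) and the 9 nearby genes of the fit reported here, against the distance of the gene start from the KCNK12 start in kb on GRCh38. KCNK12 stands at 3.68, and its neighbours lie between -1.0 and 0.88 with 3 open circles that did not pass the test.

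Over all genes of the fit, the profiles closest to that of KCNK12 across the 6 libraries, by Euclidean distance between centred log2(CPM + 1) values after TMM normalization, were those of AKR1C2 (distance 0.295), MYOCD (0.521), JUNB (0.586), PKDCC (0.668) and FIBIN (0.754). AKR1C2 is an aldo-keto reductase gene, MYOCD a smooth muscle coactivator, JUNB an AP-1 subunit and PKDCC a secreted tyrosine kinase. AKR1C2 had 253, 192 and 164 counts in 1CT and 2342, 2723 and 2806 counts in 1CT-A, and reads may be divided between it and its near-identical paralogs. MYOCD had 4, 4 and 1 counts in 1CT and 144, 139 and 153 counts in 1CT-A. The likeness is a description over 6 libraries of 2 lines and includes the difference between the lines. It is not an equal fold, since the added 1 lessens differences at low levels. In the fit MYOCD was 31.9-fold, AKR1C2 8.79-fold, JUNB 8.07-fold, FIBIN 7.29-fold and PKDCC 6.83-fold higher in 1CT-A, beside 12.8-fold for KCNK12.

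To place the members among other potassium genes, 69 further pore-forming channel genes of the voltage-gated, inward rectifier, calcium or sodium activated and remaining two-pore classes were examined. Only 30 of them were visible in any library, 22 were at 0 in all, and 7 entered the fit, of which 3 rose, 1 fell and 3 did not pass the test (median log2 fold change 0.73). Over all genes tested 25.0% were higher and 26.0% lower in 1CT-A, with a median of -0.01. KCNMA1, the BK channel opened by calcium and voltage, had the most counts among the 7 and rose from a mean of 105 ± 8.51 CPM (SD, n = 3) up to 212 ± 3.64 CPM (SD, n = 3), by 0.97 on the log2 scale (SE 0.07, adjusted p = 3.4e-07 by edgeR). KCNS3, a silent subunit that modifies Kv2 channels, rose from a mean of 10.2 ± 0.624 CPM (SD, n = 3) up to 19.1 ± 1.09 CPM (SD, n = 3), by 0.87 (SE 0.13, adjusted p = 8.1e-05 by edgeR). KCNQ5, a channel of the M current, rose by 0.73 (SE 0.24, adjusted p = 0.0223 by edgeR), from 2.60, 2.90 and 1.80 CPM to 3.94, 4.39 and 4.21 CPM. KCNQ3 of the same class fell by 1.37 (SE 0.39, adjusted p = 0.0105 by edgeR), from 3.55, 1.93 and 3.21 CPM to 1.17, 1.76 and 0.555 CPM, and without 1CT-A replicate 3 its adjusted p was 0.0504. The adjusted p of KCNQ5 was 0.0788, 0.0611 and 0.0591 without 1CT replicate 3, 1CT-A replicate 2 or 1CT-A replicate 3, and 0.0725 with DESeq2. The inward rectifiers KCNJ2 (0.73, SE 0.41) and KCNJ8 (0.01, SE 0.21) did not pass the test. KCNH4 had 1, 0 and 2 counts in 1CT and 6, 3 and 7 counts in 1CT-A and was too low for the fit.

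Among 21 auxiliary subunits of potassium channels 5 entered the fit, with 1 rise and 3 falls (median log2 fold change -0.79). All genes tested had 25.0% higher, 26.0% lower and a median of -0.01. ABCC9, the sulfonylurea receptor SUR2 that accompanies Kir6 channels, rose from 2.48, 1.21 and 0.899 CPM to 5.47, 7.37 and 6.03 CPM, by 1.98 (SE 0.31, adjusted p = 1.4e-04 by edgeR). The Kv beta subunit genes KCNAB3 and KCNAB1 fell by 1.11 (SE 0.24, adjusted p = 0.00192 by edgeR) and by 0.82 (SE 0.25, adjusted p = 0.0158 by edgeR). The third fall was KCNMB3, a BK beta subunit gene named here after its values were seen, at -0.79 (SE 0.31, adjusted p = 0.0496 by edgeR) with overlapping lines. Without 1CT-A replicate 3 only 1 fall was called.

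Among 17 genes of ion pumps and cotransporters, most of which move potassium into or out of the cell, 7 entered the fit. Their median log2 fold change was -0.19, and 4 of them fell, of which 3 are described. Beside them, 25.0% of all genes tested were higher and 26.0% lower, with a median of -0.01. No rise was called by edgeR, and none at an unadjusted p under 0.05, with DESeq2 or with limma-voom (0 in each). These are repeated readings of the same 7 genes in the same libraries. Falls numbered 3 with the replicate block and 3 to 4 when each library was left out. SLC12A7, the potassium chloride cotransporter KCC4, had 31, 36 and 15 counts in 1CT and 3, 0 and 2 counts in 1CT-A. Its fall of -4.47 on the log2 scale (SE 0.56, adjusted p = 2.5e-05 by edgeR) rests on few counts in 1CT-A. SLC12A4 (KCC1) fell from a mean of 56.2 ± 7.43 CPM (SD, n = 3) down to 25.7 ± 1.53 CPM (SD, n = 3), by 1.17 (SE 0.11, adjusted p = 2.0e-06 by edgeR). SLC12A2, the sodium potassium chloride cotransporter NKCC1 of secreting epithelia, fell from a mean of 52.9 ± 2.84 CPM (SD, n = 3) down to 35.8 ± 1.61 CPM (SD, n = 3), by 0.60 (SE 0.09, adjusted p = 7.9e-05 by edgeR).

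**Figure D4:**
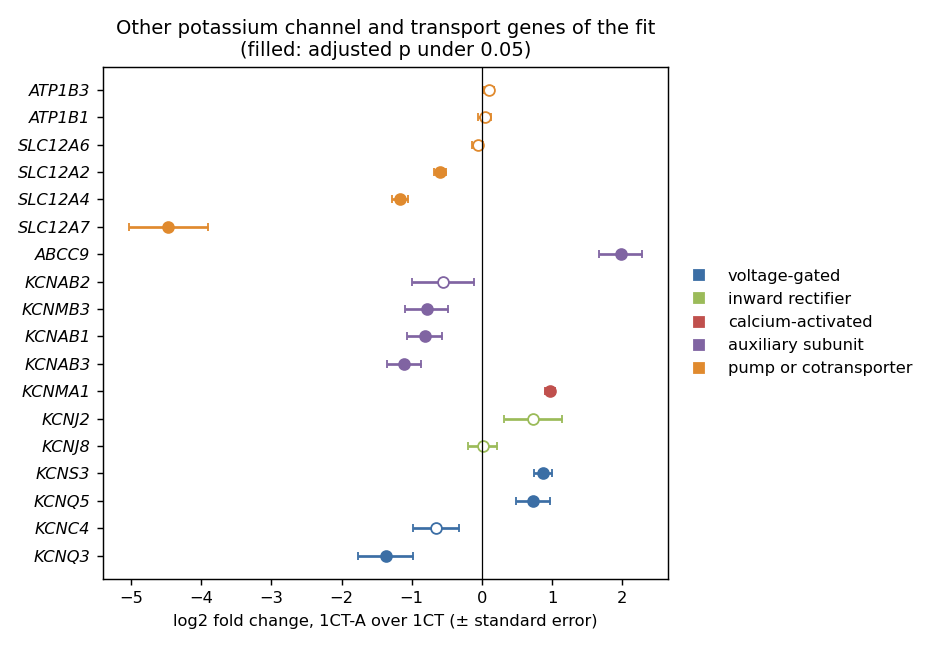
Log2 fold change of 1CT-A over 1CT (horizontal axis, with the standard error) for potassium channel, auxiliary subunit, pump and cotransporter genes of the fit that are not members, colored by class and filled where the edgeR adjusted p was under 0.05. ABCC9, KCNMA1, KCNS3 and KCNQ5 lie to the right, and SLC12A7 lies farthest to the left at -4.47.

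Of 22 genes whose proteins bind two-pore channels or set their traffic, 18 entered the fit, and 5 rose, 4 fell and 9 did not pass the test (median log2 fold change 0.04). The shares over all genes tested were 25.0% higher and 26.0% lower, with a median of -0.01. MAP2, a microtubule protein that binds TREK-1, fell from a mean of 618 ± 8.36 CPM (SD, n = 3) down to 225 ± 4.11 CPM (SD, n = 3), by 1.5 (SE 0.06, adjusted p = 1.5e-09 by edgeR). PLD2, a phospholipase that activates TREK channels, fell by 1.31 (SE 0.27, adjusted p = 0.00133 by edgeR), and S100A10, the p11 protein that binds TASK-1, fell by 0.63 (SE 0.08, adjusted p = 1.8e-05 by edgeR). POPDC3, a Popeye domain gene of the family that binds TREK-1, rose by 0.70 (SE 0.16, adjusted p = 0.00258 by edgeR). SENP1, a protease that removes small protein tags from its targets, rose by 0.60 (SE 0.15, adjusted p = 0.00384 by edgeR), and ARF6, the small GTPase tied to TWIK-1 recycling, rose by 0.37 (SE 0.07, adjusted p = 7.0e-04 by edgeR). Outside the rule for named genes, and chosen after their values were seen, YWHAG rose by 0.25 on the log2 scale (SE 0.07) without overlap. COPB1 fell by 0.27 (SE 0.09) with overlapping lines.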

How the data were processed

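RNA-seq libraries of transcript 3′ ends (QuantSeq, 500 ng of RNA input) were made by the authors from 3 samples of 1CT and 3 of 1CT-A, grouped here by the genotype in the labels. The deposited files hold raw read counts per gene symbol, 1 file per sample, not normalized. The labels' processing notes name Bowtie2, edgeR and hg19, and the annotation and strand setting of the counting are not given in the sources used here. Repeated symbols (286 of 24462, none of them a member) were summed.

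Counts were scaled to CPM of each file's total, and fewer than 3 counts in a library were called not visible. The edgeR quasi-likelihood test (edgeR 4.0.16, R 4.3.3) with TMM normalization compared 1CT-A with 1CT over 12514 genes that passed filterByExpr (minimum count 10), with Benjamini-Hochberg adjustment and a threshold of 0.05. The standard error is the log2 fold change divided by the square root of the F statistic. The fit was tested on simulated data in which a small set of well-counted genes changed. That setting does not cover changes in genes with low counts, or as many changed genes as were called here. DESeq2 1.42.0, limma-voom (limma 3.58.1), library-size scaling, no filter, a GC trend, a replicate block and leaving out each library were the alternatives. The members and the gene lists were chosen with earlier results of these data known. Genes were named as follows: all members, APC, up to 3 rises and 3 falls per list with the largest log2 fold change among called genes without overlap, list genes visible in every library of one line and none of the other, the 5 nearest tested genes on each side of KCNK12, and the 5 nearest profiles. Coordinates and coding sequences come from GENCODE release 44 (GRCh38), not from the build of the counting. Replicates of one line differed by more than counting noise (chi-square per degree of freedom 3.00 to 8.42). A few genes of the lists are not reported here.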

Additional observations from a re-analysis of the deposited data

How the results depend on the processing

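The log2 difference of KCNK12 ran from 3.46 to 4.15 when each library was left out, that of KCNK6 from -2.33 to -2.22 and that of KCNK2 from -1.10 to -0.78 over all alternatives. With at least 1 count as the limit, 8 members were visible in 1CT replicate 1 in place of 5. Without the filter on low counts, 3 other channel genes were lower in place of 1, and 4 were higher in place of 3. In that setting 19169 genes were tested in all, with 7238 called, and what moved these counts was not tested. Leaving out each library gave 0 to 1 lower calls among other channels and 1 to 3 among auxiliary subunits, the lowest without 1CT-A replicate 3. Under alternatives, 312 values were read for 26 genes that the naming rule took from the lists and the neighbours, not all reported here. APC and the nearest profiles were not among them. Of these values 297 kept their direction and side of the threshold, and the cause of the others was not tested. CALM2, not called, ran from -0.12 to 0.093 when each library was left out, with -0.12 without 1CT replicate 3 and -0.044 without 1CT-A replicate 2. PPP1R21, not called, was at 0.012 with library sizes only and 0.022 without a filter, and ran from -0.16 to 0.14 when each library was left out (0.14 without 1CT replicate 2, 0.038 without 1CT-A replicate 2). KCNAB1 missed the threshold with DESeq2 (adjusted p 0.0565) and without 1CT replicate 1, 1CT-A replicate 1 or 1CT-A replicate 3 (0.0646, 0.0506 and 0.0656). The labels number the replicates, but deviations of same-numbered libraries correlated at -0.162, 0.219 and -0.139, so the numbers were not taken as pairs. With the replicate block, KCNK12 was at 3.70, KCNK6 at -2.29 and KCNK2 at -0.91, 6091 genes were called, and lower calls among auxiliary subunits and transport genes were 2 and 3. Depth limits KCNK5, KCNK10, KCNK13 and KCNK15, with under 3 counts in every library, and KCNK3, with 2 to 10 counts.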

Other observations

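Several potassium genes outside the rule for named genes, chosen after their counts were seen and too low for the fit, are given as counts with no test. KCND2, a Kv4 channel gene, had 1, 4 and 5 counts in 1CT and 0 in each 1CT-A library. KCNN4, the intermediate calcium activated channel of epithelia and lymphocytes, had 4, 2 and 11 counts in 1CT and 0, 3 and 0 in 1CT-A, so the lines overlapped. KCNG1, a silent Kv subunit gene, had 6, 4 and 7 counts in 1CT and 16, 10 and 15 in 1CT-A, and KCNIP4, a Kv4 partner, had 3, 3 and 5 counts in 1CT and 11, 10 and 9 in 1CT-A. The 1CT-A libraries were also deeper. Scaled to depth, KCNG1 had 0.710, 0.483 and 0.899 CPM in 1CT and 1.43, 0.878 and 1.19 CPM in 1CT-A, so the lines overlapped, while for KCNIP4 they did not overlap.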
